A study of Homo sapiens with 9 samples.

Results

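The genes described here are 8 enzymes that make serine and pass its carbon into the folate cycle: PHGDH, PSAT1, PSPH, SHMT1, SHMT2, MTHFD2, MTHFD1L and ALDH1L2. They were taken by symbol from a table of raw counts for 60715 genes, and all 8 were among the 16687 genes that passed the filter on low counts. The list was chosen by pathway role and by the measured CPM and group differences of these same libraries. The differences of the 8 enzymes between groups are therefore given as a description. How many of them passed the threshold used for all genes is stated beside the share of all genes that passed, and no p-value is given for them and nothing is read from those counts.

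The study sequenced poly(A) RNA from MDA-MB-231, a widely used human cell line of triple negative breast cancer, and asked how added potassium channels alter gene expression. Cells were transduced with lentivirus and sorted by fluorescence, so that lentiviral transduction is shared by every group. The control group carried RFP, a red fluorescent protein (3 libraries). The Kir2.1 group carried KCNJ2(Kir2.1)-Y242F-EGFP, an inwardly rectifying potassium channel with a substitution, joined to a green fluorescent protein (3 libraries). The group labelled Kv1.5 carried Kv1.5-T2A-his-EGFP, a voltage-gated potassium channel (replicates 2 and 3; replicate 1 was not analysed here). The replicates are described as separate biological replicates, but no source used here says that each came from its own transduction, so the spread measured is that between cultures of a sorted line.

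KCNJ2, the gene of Kir2.1, stood at 842.7, 1384 and 1189 CPM (counts scaled to library size) in the Kir2.1 libraries and at no more than 0.105 CPM in any other library. For KCNA5, the gene of Kv1.5, the 2 Kv1.5-labelled libraries held 0 counts, so the channel's own transcript does not check that label. Total counts per library ran from 30970235 to 42753422. The mesenchymal markers VIM, CD44 and AXL, typical of the line, were all present and summed to between 3106 and 6039 CPM. VIM was lower in the Kv1.5-labelled libraries, at 1992 and 1748 CPM, than in RFP, at 2766 to 3917 CPM (adjusted p = 0.0129, edgeR quasi-likelihood test), a call not made without replicate 3 of that group. Among epithelial and luminal markers CDH1, ESR1 and PGR stayed at or under 0.184 CPM, EPCAM was at 7.78 to 27.2 CPM and KRT8 at 106.7 to 436 CPM. Of 4 tested luminal and receptor markers, 3 were also called lower in the Kv1.5-labelled libraries than in RFP, beside 15.6% of all genes. These were KRT8 (log2 fold change -1.64), KRT18 (-1.33) and GATA3 (-1.14, not called without replicate 3 of that group). In Kir2.1, 1 of the 4 was called, beside 20.5% of all genes. This was KRT18, lower at -1.02, a call lost without RFP replicate 1 or Kir2.1 replicate 2 or 3. Summed markers of fibroblasts, endothelium and leukocytes ranged from 1.62 to 20.5 CPM in RFP, from 8.18 to 10.7 CPM in Kir2.1 and from 5.24 to 6.16 CPM in the Kv1.5-labelled libraries. PECAM1 made up most of this sum, LUM was at 0.131 to 1.61 CPM and was called higher in both groups than in RFP (in Kir2.1 not without RFP replicate 1, RFP replicate 2 or Kir2.1 replicate 3), CD3E had no counts, and DCN, CDH5 and PTPRC were at or under 0.167 CPM. The part of other cells in the results was not tested. In a bulk library, less RNA per cell and fewer expressing cells cannot be told apart.

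Serine is made from a glycolytic intermediate in a 3-step pathway. PHGDH oxidises 3-phosphoglycerate, PSAT1 transfers an amino group from glutamate to the product, and PSPH removes the phosphate. The serine hydroxymethyltransferases then split serine into glycine and a one-carbon unit carried on tetrahydrofolate, SHMT1 in the cytosol and SHMT2 in mitochondria. MTHFD2 and MTHFD1L carry the unit through the mitochondrial folate steps to formate, which leaves for the cytosol, and ALDH1L2 oxidises the mitochondrial formyl unit to carbon dioxide. The transcription factor ATF4 is known to activate several of these genes when amino acids are short or the endoplasmic reticulum is stressed. Breast cancers differ widely in PHGDH, and MDA-MB-231 is commonly described as a line with little of it.

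Promoter sequences were matched by symbol in RefSeq (GRCh38.p14) for 5 of the 8 genes. The entries of PHGDH, PSAT1, MTHFD2 and MTHFD1L are shown. The first 3 differed between the groups and MTHFD1L did not pass the threshold in any comparison. SHMT1, which also passed in the Kv1.5-labelled libraries, has an entry that is not shown, in which only CCAAT was found. Each sequence is the 250 bases before the RefSeq start site, on the plus strand, written 5′ to 3′. Capitals mark matches to TGATGNAAT (the C/EBP-ATF response element, bound by ATF4 with a C/EBP partner), CACGTG (the E-box bound by MYC among others) and CCAAT (the CCAAT box bound by NF-Y). The windows were chr1:119711684-119711933 for PHGDH, chr9:78296875-78297124 for PSAT1, chr2:74198365-74198614 for MTHFD2 and chr6:150866236-150866485 for the first of the MTHFD1L entries.
PHGDH: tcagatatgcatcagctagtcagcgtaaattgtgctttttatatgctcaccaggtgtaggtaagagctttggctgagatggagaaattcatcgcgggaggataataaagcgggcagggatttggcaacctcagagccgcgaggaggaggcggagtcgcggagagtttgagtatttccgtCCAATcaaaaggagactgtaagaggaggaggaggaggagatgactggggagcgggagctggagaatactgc
PSAT1: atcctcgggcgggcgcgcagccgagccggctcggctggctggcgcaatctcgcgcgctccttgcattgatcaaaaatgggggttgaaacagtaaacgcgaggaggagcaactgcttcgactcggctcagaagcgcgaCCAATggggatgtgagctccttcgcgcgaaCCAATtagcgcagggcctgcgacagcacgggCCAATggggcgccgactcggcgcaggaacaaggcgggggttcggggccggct
MTHFD2: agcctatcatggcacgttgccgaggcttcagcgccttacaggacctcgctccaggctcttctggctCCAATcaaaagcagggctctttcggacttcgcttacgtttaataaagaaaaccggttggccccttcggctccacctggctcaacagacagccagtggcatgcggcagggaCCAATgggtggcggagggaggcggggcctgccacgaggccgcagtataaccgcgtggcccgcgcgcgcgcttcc
MTHFD1L: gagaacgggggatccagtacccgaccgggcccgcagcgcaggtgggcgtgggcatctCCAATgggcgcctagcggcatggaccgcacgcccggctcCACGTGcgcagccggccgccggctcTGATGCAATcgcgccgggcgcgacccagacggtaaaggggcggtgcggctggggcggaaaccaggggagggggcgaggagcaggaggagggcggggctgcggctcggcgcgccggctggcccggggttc
The search covered both strands of the full 300-base RefSeq windows, which end 50 bases after the start. TGATGNAAT, which overlaps neither of the other motifs here, was found in the MTHFD1L window alone of these 4, as TGATGCAAT with its first base at -129 from the start site (chromosome 6, 150866357 to 150866365). Of 35116 RefSeq promoter windows of this length, 0.991% held it. The MTHFD1L window also held CACGTG at -154, a motif found in 7.26% of all windows. Positions in MTHFD1L depend on the entry used. From the start sites of its entries 2 and 3, the same TGATGCAAT began at 25 (after the start) and at -90. Its entry 4, at another place in the gene, held none of these motifs. CCAAT was found at -71 in PHGDH, at -113, -83 and -52 in PSAT1, at -184 and -74 in MTHFD2 and at -193 in MTHFD1L, and 34.6% of all windows held it on either strand. A missing match says only that these letters are not in the window.

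PHGDH (ENSG00000092621.13, GRCh38 chromosome 1, 119648411 to 119744226, plus strand) had the widest range of the 7 members above 1 CPM. It was at 97.0, 119 and 75.5 CPM in the RFP libraries, at 7.34, 4.24 and 6.45 CPM in Kir2.1, and at 47.7 and 51.0 CPM in the Kv1.5-labelled libraries. The 3 groups did not overlap: every Kir2.1 library was below every Kv1.5-labelled library, and those were below every RFP library. Group levels were 97.0 ± 21.6 CPM (SD, n = 3) in RFP, 6.01 ± 1.59 CPM (SD, n = 3) in Kir2.1 and 49.4 ± 2.34 CPM (SD, n = 2) in the Kv1.5-labelled libraries. The fitted log2 difference between Kir2.1 and RFP was -4.01 ± 0.26 (SE), or 16.2-fold lower. Between the Kv1.5-labelled libraries and RFP it was -0.98 ± 0.26 (SE), or 1.97-fold lower, and it missed the threshold when RFP replicate 2 or replicate 2 of the group labelled Kv1.5 was left out. Both comparisons use the same RFP libraries, here and for every member below.

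PSAT1 (ENSG00000135069.14, chromosome 9, 78297143 to 78330093, plus strand), the aminotransferase of the second step, was lower in Kir2.1 by a smaller amount than PHGDH. It stood at 246, 267 and 234 CPM in RFP, at 99.0, 87.5 and 118 CPM in Kir2.1, and at 310 and 459 CPM in the Kv1.5-labelled libraries. All Kir2.1 libraries were below RFP and both Kv1.5-labelled libraries were above it. The log2 difference from RFP was -1.30 ± 0.20 (SE) in Kir2.1, 2.46-fold lower, and 0.63 ± 0.22 (SE) in the Kv1.5-labelled libraries, 1.54-fold higher. The Kv1.5-labelled libraries were 1.48-fold apart, and without replicate 3 of that group the log2 difference from RFP was 0.32. The difference also missed the threshold without any single RFP library, Kir2.1 replicate 2 or Kir2.1 replicate 3.

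PSPH (chromosome 7, 56011051 to 56051604, minus strand), the phosphatase of the last step, did not share the low Kir2.1 level. It was at 32.1, 34.7 and 26.9 CPM in RFP, at 35.1, 33.3 and 37.9 CPM in Kir2.1, and at 93.7 and 77.7 CPM in the Kv1.5-labelled libraries. RFP and Kir2.1 overlapped, and both Kv1.5-labelled libraries were above all others. The log2 difference from RFP was 0.18 ± 0.18 (SE) in Kir2.1 and 1.46 ± 0.19 (SE), 2.74-fold higher, in the Kv1.5-labelled libraries. A near copy, the pseudogene PSPHP1, held 2266 counts over all libraries against 13877 for PSPH, so reads may be split between them. With both summed, an alternative chosen after seeing the data, the log2 differences were 0.12 and 1.29.

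**Figure D1:**
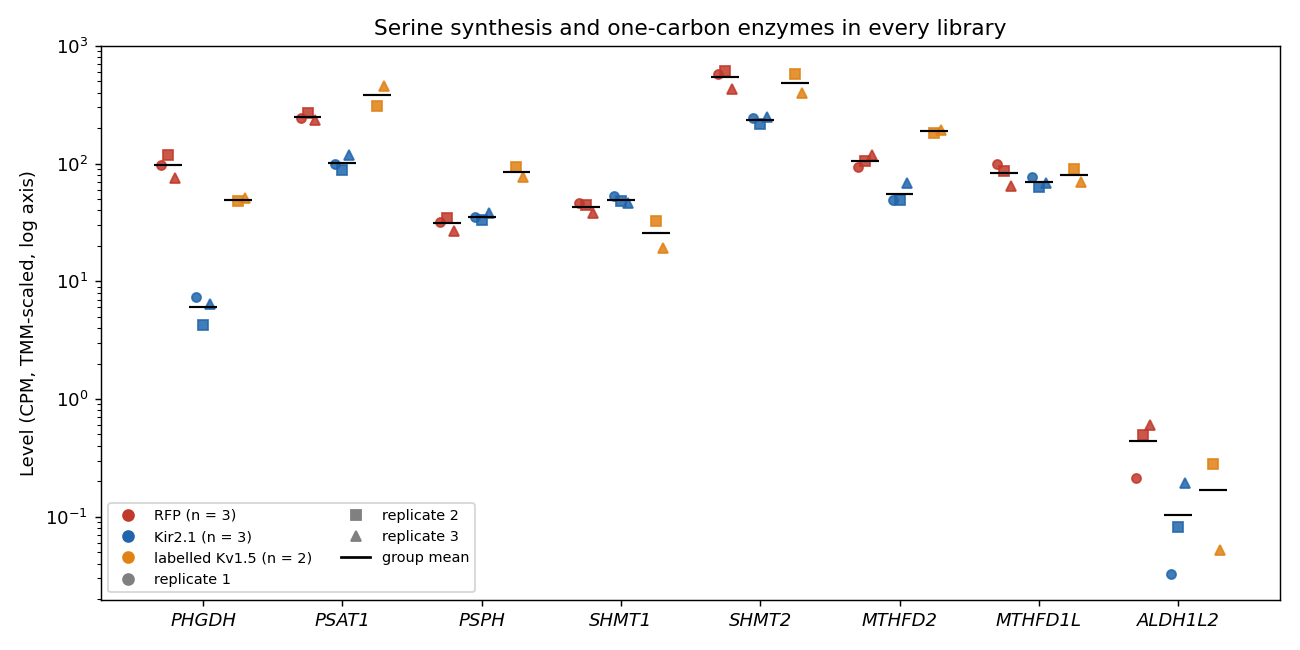
Level of each of the 8 enzymes in every library, in CPM on TMM-scaled library sizes (vertical log axis), by group. Each point is a library, its marker shape gives the replicate number and the black bar is the group mean; PHGDH lies between 4.24 and 7.34 CPM in the Kir2.1 libraries and between 75.5 and 119 CPM in RFP, while MTHFD1L overlaps in all groups.

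The steps of the pathway thus stood in different proportion to each other in the 3 groups. For each PHGDH count there were 2.54, 2.25 and 3.11 PSAT1 counts in RFP, 13.5, 20.6 and 18.2 in Kir2.1, and 6.50 and 9.004 in the Kv1.5-labelled libraries. A ratio of counts within a library does not depend on library scaling. The ratio was lowest in all RFP libraries, and the groups did not overlap.

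Of the hydroxymethyltransferases, SHMT2 was lowest in Kir2.1 and SHMT1 was lowest in the Kv1.5-labelled libraries. SHMT2 (chromosome 12, 57229327 to 57234935, plus strand), the mitochondrial enzyme, was at 583, 611 and 434 CPM in RFP, at 246, 216 and 248 CPM in Kir2.1, and at 575 and 399.96 CPM in the Kv1.5-labelled libraries. Kir2.1 was below every other library, whereas the Kv1.5-labelled libraries overlapped RFP. The log2 difference of SHMT2 between Kir2.1 and RFP was -1.20 ± 0.20 (SE), 2.29-fold lower. Between the Kv1.5-labelled libraries and RFP it was -0.15 ± 0.23 (SE), and it was 0.08 without replicate 3 of that group.

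SHMT1 (chromosome 17, 18327860 to 18363563, minus strand), the cytosolic enzyme, was at 46.6, 44.3 and 37.8 CPM in RFP, at 53.3, 48.6 and 46.4 CPM in Kir2.1, and at 32.4 and 19.2 CPM in the Kv1.5-labelled libraries. RFP and Kir2.1 overlapped, and both Kv1.5-labelled libraries lay below all others. The log2 difference of SHMT1 from RFP was 0.20 ± 0.21 (SE) in Kir2.1 and -0.73 ± 0.24 (SE), 1.66-fold lower, in the Kv1.5-labelled libraries. Without replicate 3 of that group it was -0.40, and it missed the threshold without that library, RFP replicate 1, RFP replicate 2 or Kir2.1 replicate 2. SHMT1 shares 196 exon bases with SMCR8 on the opposite strand, and whether counting used strand is not stated by the labels or file headers. Set against each other, SHMT2 had 12.5, 13.8 and 11.5 counts for each SHMT1 count in RFP, 4.61, 4.45 and 5.33 in Kir2.1, and 17.7 and 20.8 in the Kv1.5-labelled libraries. These groups did not overlap, and the Kir2.1 libraries were lowest.

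MTHFD2 (chromosome 2, 74198562 to 74217565, plus strand), the mitochondrial dehydrogenase and cyclohydrolase, had the same group order as PSAT1. It was at 93.7, 106 and 118 CPM in RFP, at 49.6, 49.2 and 68.0 CPM in Kir2.1, and at 183 and 194 CPM in the Kv1.5-labelled libraries. No group overlapped another. The log2 difference from RFP was -0.93 ± 0.19 (SE), 1.90-fold lower, in Kir2.1 and 0.83 ± 0.20 (SE), 1.78-fold higher, in the Kv1.5-labelled libraries. MTHFD2 shares 1324 exon bases with SLC4A5 on the opposite strand, which had 31 counts over all libraries against 32322 for MTHFD2.

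MTHFD1L (chromosome 6, 150865549 to 151101887, plus strand), the mitochondrial formate-producing synthetase, varied least between groups of the members above 1 CPM. It was at 98.9, 86.6 and 64.9 CPM in RFP, at 76.8, 63.9 and 67.9 CPM in Kir2.1, and at 90.8 and 69.2 CPM in the Kv1.5-labelled libraries. The groups overlapped in every comparison, and the log2 difference from RFP was -0.26 ± 0.20 (SE) in Kir2.1 and -0.06 ± 0.22 (SE) in the Kv1.5-labelled libraries.

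ALDH1L2 (chromosome 12, 105019784 to 105084577, minus strand) was near the limit of detection, with 73 counts over all libraries. There were 9, 19 and 21 counts in the RFP libraries, 1, 3 and 7 in Kir2.1 and 11 and 2 in those labelled Kv1.5. Kir2.1 was below RFP without overlap, at a log2 difference of -2.02 ± 0.72 (SE) that passed the threshold only when RFP replicate 1 or a Kv1.5-labelled library was left out, or with no filter on low counts. ALDH1L2 shares 145 exon bases with C12orf45 on the opposite strand, which held 6824 counts, so part of these few counts may belong to that gene.

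**Figure D2:**
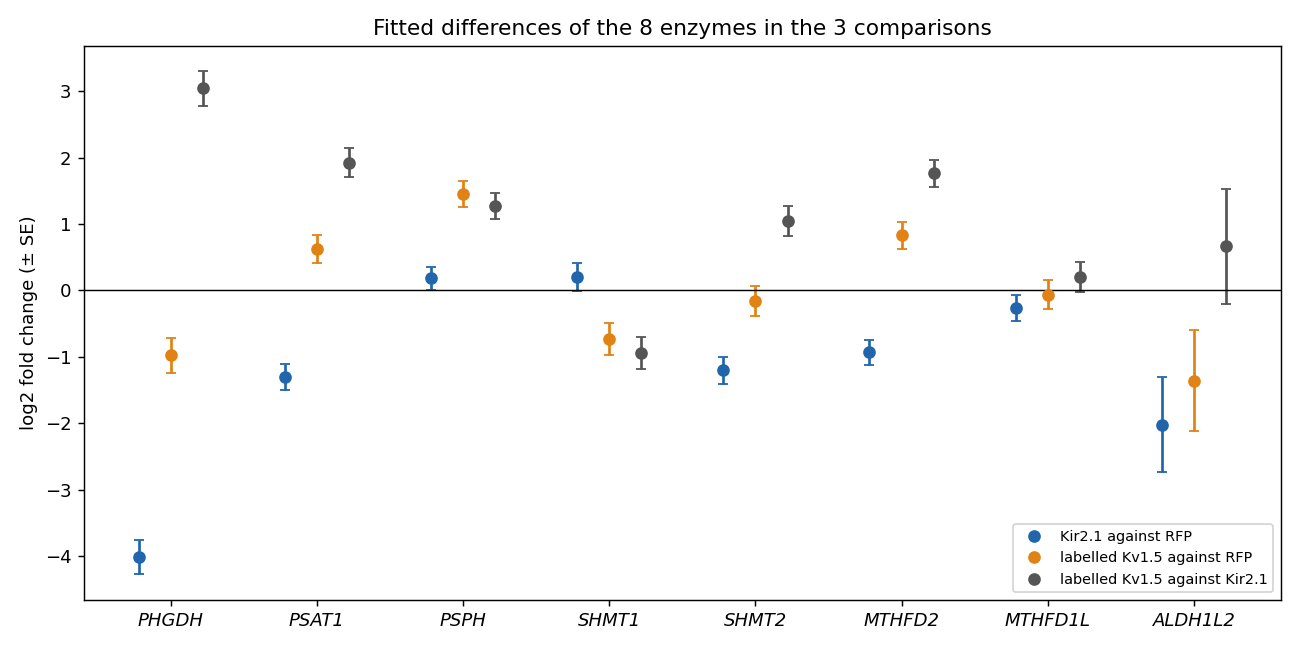
Fitted log2 fold change of each enzyme in the 3 comparisons, with bars of 1 standard error. Each colour is a comparison; PHGDH in Kir2.1 against RFP, at -4.01, lies farthest from 0, and MTHFD1L lies between -0.26 and 0.20 in all 3.

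In Kir2.1 against RFP, 4 of the 8 enzymes passed an adjusted p of 0.05 in edgeR's quasi-likelihood test: PHGDH, PSAT1, SHMT2 and MTHFD2, all lower. Over all genes tested, 20.5% passed in either direction, 12.2% as higher and 8.26% as lower. Without overlap between these groups were 5 of the enzymes, those 4 and ALDH1L2, beside 44.7% of all genes (23.9% higher and 20.8% lower in Kir2.1). In the Kv1.5-labelled libraries against RFP, 5 enzymes passed, beside 33.7% of all genes (18.1% higher, 15.6% lower): PSAT1, PSPH and MTHFD2 were higher, and PHGDH and SHMT1 were lower. The same 5 enzymes did not overlap between those groups, beside 54.2% of all genes (27.9% higher, 26.4% lower). This count of 5 was 3 without RFP replicate 1, without Kir2.1 replicate 2 or without replicate 3 of the group labelled Kv1.5, and 2 without RFP replicate 2.

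Between the Kv1.5-labelled libraries and Kir2.1, 6 enzymes passed, beside 16.8% of all genes (8.79% higher, 7.99% lower). The same 6 did not overlap, beside 47.7% of all genes (23.3% higher, 24.4% lower). PHGDH was 8.22-fold higher in the Kv1.5-labelled libraries than in Kir2.1, PSAT1 3.80-fold, MTHFD2 3.39-fold, PSPH 2.42-fold and SHMT2 2.06-fold. SHMT1 was 1.91-fold lower, which missed the threshold without Kir2.1 replicate 1, Kir2.1 replicate 2 or replicate 3 of the group labelled Kv1.5. The median log2 difference of the 8 enzymes was -1.06 in Kir2.1 against RFP, -0.11 in the Kv1.5-labelled libraries against RFP, and 1.16 between the Kv1.5-labelled libraries and Kir2.1. Over all genes tested the medians were -0.01, 0.02 and 0.01. Since the list was proposed with these comparisons known, nothing is read from these counts and medians.

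The authors' deposited table of Kir2.1 against RFP lists 3 of the 8 enzymes among its 1139 genes. Its log2 fold changes are -4.02 for PHGDH, -1.31 for PSAT1 and -1.20 for SHMT2. The authors' deposited table for Kv1.5 against RFP lists PSPH alone of the 8, at 1.46, among 2178 genes.

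Per kilobase of the principal transcript, SHMT2 was the most abundant of the 8 in every group, at 214 ± 37.6 CPM per kb (SD, n = 3) in RFP, 93.2 ± 6.92 (SD, n = 3) in Kir2.1 and 192 ± 48.9 (SD, n = 2) in the Kv1.5-labelled libraries. PSAT1 followed at 114 ± 7.54, 46.3 ± 6.94 and 176 ± 48.2 CPM per kb, and in the Kv1.5-labelled libraries it did not differ from SHMT2 beyond their spread. PHGDH came next in RFP at 37.5 ± 8.34 CPM per kb, ahead of MTHFD2 at 23.8 ± 2.74, MTHFD1L at 23.2 ± 4.77, SHMT1 at 17.4 ± 1.85 and PSPH at 14.3 ± 1.82. From MTHFD2 down to PSPH, neighbours in this order overlapped in RFP. In Kir2.1 the order after PSAT1 was SHMT1 at 20.1, MTHFD1L at 19.3, PSPH at 16.3 and MTHFD2 at 12.5 CPM per kb, with PHGDH the seventh of 8 at 2.32 ± 0.616. In the Kv1.5-labelled libraries MTHFD2 followed at 42.3 and PSPH at 39.4 CPM per kb, and PHGDH was the sixth at 19.1 ± 0.906, between MTHFD1L at 22.2 and SHMT1 at 10.5. ALDH1L2 was last in every group, at 0.0582 CPM per kb in RFP. The order depends on the length used: with the union of all exons, PHGDH is the sixth in RFP and PSAT1 is above SHMT2 in RFP and in the Kv1.5-labelled libraries.

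The 2 Kv1.5-labelled libraries differed from each other in several members. Replicate 3 had 0.593 times the SHMT1 level of replicate 2, 0.695 times its SHMT2, 0.762 times its MTHFD1L and 0.829 times its PSPH. PSAT1 went the other way, at 1.48 times, and ALDH1L2, at 11 and 2 counts, stood at 0.187 times. PHGDH and MTHFD2 were at 1.07 and 1.06 times.

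The genes whose levels followed each enzyme most closely were ranked by the root mean square difference of centred log2 CPM over the 8 libraries, among the 10695 genes averaging 5 CPM or more. The gene nearest to PSAT1 was MTHFD2, at 0.24 against a median of 0.89 over all genes, followed by SYBU at 0.26. Nearest to MTHFD2 were CEBPG, a C/EBP family transcription factor, at 0.15, and TUBE1 at 0.19, with PSAT1 the fourth. Nearest to PHGDH were DMKN at 0.47 and AIF1L at 0.58, against a median of 1.86. The nearest genes were RBCK1 and CT83 for PSPH, OGG1 and JMJD8 for SHMT1, GDAP1 and MARS1 for SHMT2, and INPP5A and NAT10 for MTHFD1L. Genes with small differences between groups have many near neighbours, so these distances are comparable within a member only, and the groups themselves set most of the likeness.

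**Figure D3:**
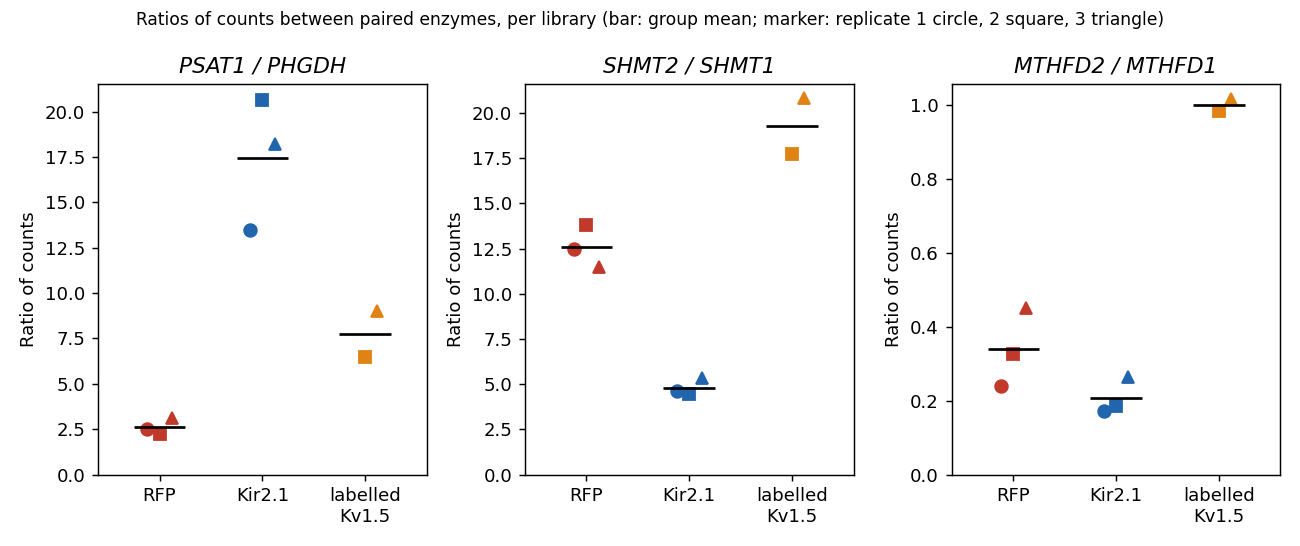
Ratio of counts between pairs of enzymes in each library, by group: PSAT1 over PHGDH, SHMT2 over SHMT1 and MTHFD2 over its cytosolic relative MTHFD1. Points are libraries and bars are group means; PSAT1 over PHGDH is lowest in RFP, and the means of the other ratios are lowest in Kir2.1 and highest in the Kv1.5-labelled libraries.

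Cytosolic counterparts of the mitochondrial enzymes are given beside them. MTHFD1, which carries out the cytosolic reactions of MTHFD2 and MTHFD1L in a single protein, was at 390, 323 and 262 CPM in RFP, at 286, 263 and 257 CPM in Kir2.1, and at 186 and 190 CPM in the Kv1.5-labelled libraries. It fell in the Kv1.5-labelled libraries (log2 fold change -0.79 ± 0.21 SE, adjusted p = 0.0123, edgeR quasi-likelihood test over all genes), and both of those libraries were below all others. For each MTHFD1 count there were 0.240, 0.327 and 0.450 MTHFD2 counts in RFP, 0.173, 0.187 and 0.265 in Kir2.1, and 0.984 and 1.02 in the Kv1.5-labelled libraries. RFP and Kir2.1 overlapped in this ratio, and the Kv1.5-labelled libraries were above both. ALDH1L1, the cytosolic relative of ALDH1L2, stayed under 2 CPM in every library. It rose in Kir2.1 (1.85 ± 0.45 SE, adjusted p = 0.0123). Without Kir2.1 replicate 1 the log2 fold change was 1.65 and the adjusted p 0.0566 in the same edgeR test.

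TYMS, the thymidylate synthase, which takes its one-carbon unit from cytosolic folate, was at 304, 299 and 293 CPM in RFP, at 322, 240 and 270 CPM in Kir2.1, and at 201 and 147 CPM in the Kv1.5-labelled libraries. It fell in the latter (log2 fold change -0.78, adjusted p = 0.0138), where both libraries were below all others, and the call was not made without replicate 3 of that group. TYMS shares 39.1% of its exon bases with ENOSF1 on the opposite strand, and whether counting used strand is not stated.

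Among 6 tested genes of the mitochondrial folate steps and glycine cleavage, 2 rose in the Kv1.5-labelled libraries, beside 18.1% of all genes. MTHFD2L, a mitochondrial relative of MTHFD2, was at 14.8 to 15.3 CPM in RFP and at 23.4 and 30.2 CPM in those libraries (log2 fold change 0.84 ± 0.20 SE, adjusted p = 0.00813). The other, DMGDH, was at or under 0.50 CPM throughout, and DESeq2 called 1 of the 6. Its call was also lost without RFP replicate 1 or 3, Kir2.1 replicate 2 or either Kv1.5-labelled library, so that the count of 2 was then 1. In Kir2.1 edgeR's test called 0 of these 6, beside 20.5% of all genes. At an unadjusted p under 0.05, 2 passed as higher, and DESeq2 and limma voom called 1 each.

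Carriers of serine and glycine were counted next. In the Kv1.5-labelled libraries 4 of 7 rose and 2 fell, beside 18.1% and 15.6% of all genes. SLC1A4, a neutral amino acid exchanger that takes serine, was at 10.8, 13.3 and 13.8 CPM in RFP, at 16.3, 16.6 and 17.4 CPM in Kir2.1, and at 61.6 and 54.1 CPM in the Kv1.5-labelled libraries (log2 fold change against RFP 2.20 ± 0.20 SE, adjusted p = 1.2e-05). The glycine transporter SLC6A9 rose by 2.19 (adjusted p = 3.7e-05), SLC38A2 by 1.71 (adjusted p = 0.00061) and SLC1A5 by 1.25 (adjusted p = 0.00411). SFXN1, the mitochondrial serine carrier, fell there. It was at 164, 144 and 137 CPM in RFP, at 96.1, 105 and 114 CPM in Kir2.1 and at 54.7 and 78.1 CPM in the Kv1.5-labelled libraries, with log2 differences from RFP of -1.16 (adjusted p = 0.0015) in the latter and -0.50 (adjusted p = 0.0736) in Kir2.1. In Kir2.1 only SLC38A1 of the 7 passed, at -1.05 (adjusted p = 0.00989), beside 20.5% of all genes. That count was 3 without either of the Kv1.5-labelled libraries and 2 without RFP replicate 2, with SLC6A9 as higher and SFXN1 as lower among those added.

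Of 6 tested genes of folate carriage and retention, 1 rose and 2 fell in the Kv1.5-labelled libraries, beside 33.7% of all genes. In Kir2.1, 1 of the 6 fell, beside 20.5% of all genes. SLC25A32, the mitochondrial folate carrier, was at 2.00 to 11.4 CPM and passed in no comparison, and 69.7% of its exon bases are shared with another gene model, so its counts are uncertain. SLC19A1, the reduced folate carrier, had 16 to 23 counts in RFP libraries and 0 to 2 counts in all others, and passed as lower in both groups. At counts this low, and with 14.0% of its exon bases shared with COL18A1 on the opposite strand, its difference is uncertain. SLC46A1 and FOLR1 passed in the Kv1.5-labelled libraries, as lower and higher, and neither call held without replicate 2 of that group, RFP replicate 1 or RFP replicate 2. SLC46A1 shares 56.4% of its exon bases with SARM1 on the opposite strand, so its difference is uncertain too.

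CTH, the last enzyme of transsulfuration, which makes cysteine from serine-derived cystathionine, had the largest rise of the neighbouring genes above 1 CPM. It was at 12.6, 11.7 and 10.7 CPM in RFP, at 13.2, 14.6 and 19.4 CPM in Kir2.1, and at 203 and 147 CPM in the Kv1.5-labelled libraries (log2 fold change against RFP 3.91 ± 0.23 SE, adjusted p = 5.2e-07). Of the 7 tested genes of the methionine cycle and transsulfuration, GNMT was the other that rose in the Kv1.5-labelled libraries, at under 1 CPM. These 2 of 7 stand beside 18.1% of all genes. GNMT was also the only one to pass in Kir2.1, beside 20.5% of all genes. That call was lost without RFP replicate 2, RFP replicate 3 or Kir2.1 replicate 3. CBS, BHMT and MTAP are listed at 0 counts in every library. How reads that fit several places were counted is not stated, so a listed 0 is not read as absence of the transcript.

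Purine ring synthesis takes up formyl units and glycine. Of its 6 tested enzymes, edgeR's test called 1 in the Kv1.5-labelled libraries, beside 33.7% of all genes. This was GART, which rose from 193, 193 and 169 CPM in RFP to 389 and 457 CPM (log2 fold change 1.19 ± 0.18 SE, adjusted p = 0.000441). DESeq2 called 3 of the 6 as higher there, adding PPAT and ADSL, and limma voom called 1. At an unadjusted p under 0.05, 3 were higher and 1 lower. PPAT, at 34.5 and 93.5 CPM in replicates 2 and 3, was called without replicate 2 (log2 fold change 1.41). ADSL was called without Kir2.1 replicate 1, and PFAS, as lower, without RFP replicate 3. In Kir2.1, 0 of the 6 passed in edgeR's test, beside 20.5% of all genes. Of the 6, 0 had an unadjusted p under 0.05 there, and DESeq2 and limma voom called 0. Of 8 other users of serine, SARS1, the cytosolic seryl-tRNA synthetase, was the one that passed against RFP with all libraries in edgeR's test. This 1 of 8 stands beside 20.5% of all genes in Kir2.1 and 33.7% in the Kv1.5-labelled libraries. DESeq2 called 2 as lower in Kir2.1, adding SPTLC1, a subunit of serine palmitoyltransferase. SRR, the serine racemase, passed in Kir2.1 without RFP replicate 3, and SDSL in the Kv1.5-labelled group without its replicate 3. SARS1 was at 488, 460 and 388 CPM in RFP, at 277, 239 and 268 CPM in Kir2.1, and at 761 and 730 CPM in the Kv1.5-labelled libraries. Its log2 fold change was -0.77 (adjusted p = 0.00771) in Kir2.1, where leaving out Kir2.1 replicate 2 ended the call, and 0.74 (adjusted p = 0.0101) in the Kv1.5-labelled libraries. This is the group order of PSAT1 and MTHFD2.

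Over these 7 lists together, 46 of 53 genes were tested. In Kir2.1, 3 rose and 4 fell, 7 of 46 in all, beside 20.5% of all genes. That count was 12 without either of the Kv1.5-labelled libraries. In the Kv1.5-labelled libraries, 13 rose and 7 fell, beside 33.7% of all genes. Between the Kv1.5-labelled libraries and Kir2.1, 10 were higher in the former and 4 lower, beside 16.8% of all genes, and the count of 14 was 9 without any of the Kir2.1 libraries or without replicate 3 of the group labelled Kv1.5.

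**Figure D4:**
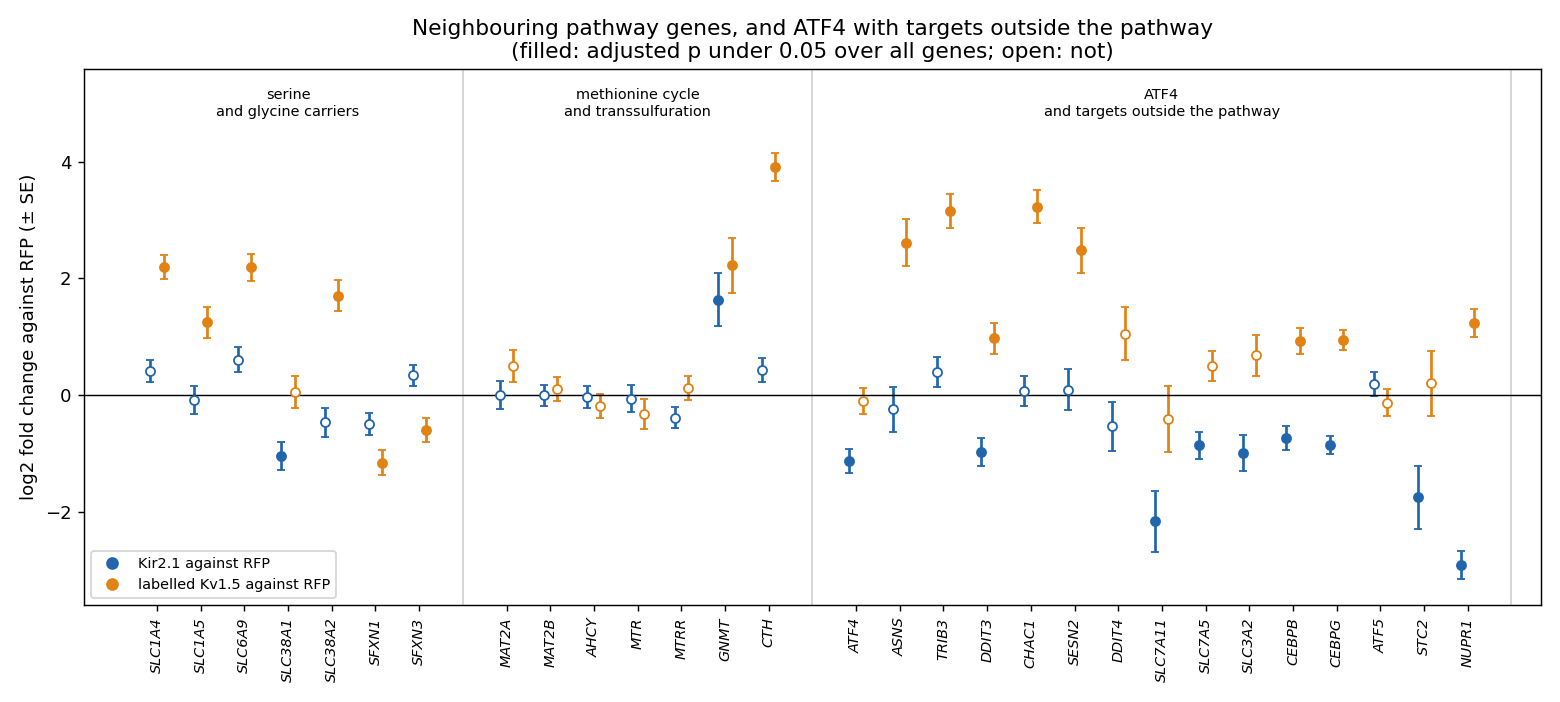
Log2 fold change against RFP, with bars of 1 standard error, of genes of 3 lists: carriers of serine and glycine, the methionine cycle with transsulfuration, and ATF4 with targets outside the pathway. Each gene has a point for Kir2.1 and a point for the Kv1.5-labelled libraries; CTH, CHAC1 and TRIB3 lie above 3 in the latter.

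ATF4 and 14 of its known targets outside the pathway were counted beside the enzymes. This list was chosen with earlier results of these data known, so its counts, median and p-values are a description. The part of ATF4 in the levels of the enzymes was not tested. In Kir2.1, 9 of the 15 fell and 0 rose, beside 20.5% of all genes called. The count of 9 was 4 without RFP replicate 2, 3 without Kir2.1 replicate 2 and 4 without Kir2.1 replicate 3. In the Kv1.5-labelled libraries, 8 of 15 rose and 0 fell, beside 33.7% of all genes called, and 13 were higher there than in Kir2.1, beside 16.8%. In neither direction counted as 0 did any gene have an unadjusted p under 0.05, and DESeq2 and limma voom called 0 there too. The list's median log2 difference was -0.86 in Kir2.1 and 0.94 in the Kv1.5-labelled libraries, beside -0.01 and 0.02 over all genes tested.

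ATF4 itself was at 361, 426 and 365 CPM in RFP, at 182, 139 and 204 CPM in Kir2.1, and at 295 and 418 CPM in the Kv1.5-labelled libraries. Its transcript fell in Kir2.1 (log2 fold change -1.14 ± 0.20 SE, adjusted p = 0.00218), whereas the Kv1.5-labelled libraries overlapped RFP (-0.11, adjusted p = 0.755). CEBPG, the gene nearest to MTHFD2 above, fell by 0.86 in Kir2.1 (adjusted p = 0.00276) and rose by 0.94 in the Kv1.5-labelled libraries (adjusted p = 0.00172). NUPR1, a stress-induced chromatin protein, was at 16.0 to 24.4 CPM in RFP, 2.22 to 3.10 CPM in Kir2.1 and 42.1 and 51.4 CPM in the Kv1.5-labelled libraries, at log2 fold changes of -2.91 (adjusted p = 7.1e-06) and 1.24 (adjusted p = 0.00213). SLC7A11, the cystine antiporter, had 387 CPM in RFP replicate 1 and 116 and 73.6 CPM in the other RFP libraries. Its log2 fold change in Kir2.1 was -2.16 (adjusted p = 0.0184) and -1.15 without RFP replicate 1, and the call was lost without Kir2.1 replicate 2 or 3 or either Kv1.5-labelled library. STC2, a secreted stress-response glycoprotein at 3.34 CPM or less, also passed in Kir2.1, at -1.76 (adjusted p = 0.0384), which did not pass when RFP replicate 2 or 3 or Kir2.1 replicate 2 or 3 was left out and was -2.44 without Kir2.1 replicate 1.

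CHAC1, which degrades glutathione, rose by 3.23 in the Kv1.5-labelled libraries (adjusted p = 8.8e-06), from 9.55 to 13.1 CPM in RFP to 121 and 91.6 CPM. TRIB3, a pseudokinase, rose by 3.15 (adjusted p = 1.2e-05). ASNS, the asparagine synthetase, rose by 2.61 (adjusted p = 0.00048) at 5.42 CPM or less, and 44.6% of its exon bases are shared with another gene model, so its level is uncertain. Of 2 other known regulators of serine synthesis, MYC rose in the Kv1.5-labelled libraries, from 173 to 260 CPM in RFP to 652 and 1197 CPM (log2 fold change 2.03 ± 0.27 SE, adjusted p = 0.00018), and was at 176 to 229 CPM in Kir2.1. NFE2L2, at 108 to 207 CPM, passed in no comparison.

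Markers of dividing cells were low in the same Kv1.5-labelled libraries where SHMT1, MTHFD1 and TYMS were low. All 8 markers fell there, beside 15.6% of all genes. Their summed level was 1315 and 629 CPM, against 3511 to 3688 CPM in RFP and 2522 to 2954 CPM in Kir2.1. MKI67 was at 319 and 67.7 CPM in the 2 libraries, with a log2 fold change of -2.37 (adjusted p = 0.00764) that was -3.88 without replicate 2 and -1.65 without replicate 3. Replicate 3, with the lower sum, had the lower SHMT1 and TYMS of the 2 libraries, while MTHFD1 was at 186 and 190 CPM. Of the markers, PCNA, MCM2 and UHRF1 were higher in replicate 3 than in replicate 2, with PCNA at 177 and 104 CPM. The part of dividing cells in the levels of these folate genes was not tested. In Kir2.1, where SHMT2, PSAT1 and MTHFD2 were low, edgeR's test called 0 of the 8 markers, beside 20.5% of all genes. Of the markers, 0 had an unadjusted p under 0.05, DESeq2 and limma voom called 0, and 1 was called without either Kv1.5-labelled library. All 8 had a log2 difference below 0 there, with a median of -0.40, beside -0.01 over all genes. Without overlap, 4 of the 8 were lower, beside 20.8% of all genes.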

How the data were processed

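Poly(A) RNA was sequenced as single-end reads from libraries of a stranded mRNA kit, per the labels' protocols. The submitters' processing notes name FastQC, Trimmomatic, STAR, edgeR and build GRCh38 but no versions. How reads were counted, on which annotation and whether by strand, is not given in sources used here. The authors deposited raw counts per gene for 8 libraries. The authors' deposited comparison tables give log2 fold changes, from which values are printed where named, with p-values that were not used.

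Counts were fitted with edgeR 4.0.16 (R 4.3.3), after filterByExpr had left 16687 genes, with TMM scaling and robust quasi-likelihood F-tests, with all 8 libraries in a single fit on group and 5 residual degrees of freedom. Adjusted p is Benjamini-Hochberg over all genes tested, with a threshold of 0.05. Standard errors were derived from the F statistics. CPM values are on TMM-scaled libraries. DESeq2 1.42.0 and limma 3.58.1 (voom) were alternatives, besides other scalings, filters, a stricter threshold, a replicate block and leaving out each library. The fit was also run on counts simulated from its own estimated dispersions, which cannot show whether its model holds for these data. Symbols matched 60445 of 60715 IDs, and positions and overlaps came from GENCODE 29. The design assumed 9 libraries and 8 were analysed here. The p-values judge a difference between groups against the spread between cultures, which is estimated over all groups together.

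The 8 enzymes, the 7 neighbouring lists and the marker lists were chosen with earlier results of these data known. So were the lists of ATF4 with its targets, regulators and dividing cells. Counts, medians and p-values of all these lists are therefore a description. Named were the members, enzymes paired with a member in the other compartment and a few fixed genes, up to 3 called genes of largest change in each list and comparison, and the 2 genes nearest to each member. SLC1A5, NFE2L2, PPAT, ADSL, PFAS, SPTLC1, SRR, SDSL, PCNA and MCM2 were named beyond that rule, after their values were seen. Some genes that the rule names are not reported here.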

Additional observations from a re-analysis of the deposited data

How the results depend on the processing

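Over 17 alternatives, 403 values of the members were recomputed, not counting those of the summed PSPH count. Of these, 371 kept their direction and side of the threshold, 4 newly passed, 22 no longer passed and 6 changed sign. The sign changes were all of differences that had not passed. Kv1.5 stands here for the libraries with that label. Without Kv1.5 replicate 3 the log2 difference of SHMT2 from RFP was 0.0844. That of MTHFD1L was 0.12 without that library, 0.08 without RFP replicate 1 and 0.0498 with the replicate block. Without Kv1.5 replicate 2, the differences from Kir2.1 were -0.00496 for MTHFD1L and -0.95 for ALDH1L2. With a library left out, these ranged from -0.43 to 0.08 (SHMT2), -0.26 to 0.12 (MTHFD1L against RFP), -0.00496 to 0.38 (MTHFD1L against Kir2.1) and -0.95 to 1.47 (ALDH1L2). The cause was not tested.

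The call of PSAT1 in Kv1.5 against RFP was lost under 9 alternatives, that of SHMT1 under 6 and that of PHGDH under 3. The difference of PHGDH between Kir2.1 and RFP ranged from -4.18 to -3.82. With 3 libraries or fewer in each group, the counts moved with each library left out. Members called were 4 to 5 in Kir2.1 against RFP and 2 to 5 in Kv1.5 against RFP. In the latter, 3 were called in a fit of those groups alone and 2 at an adjusted p of 0.01. With a library left out, genes changed numbered 1975 to 4519 (Kir2.1 against RFP, 3418 with all), 3912 to 5536 (Kv1.5 against RFP, 5624 with all) and 1384 to 3861 (Kv1.5 against Kir2.1, 2801 with all). At an adjusted p of 0.01 they numbered 1681, 3123 and 970. Genes of the 7 neighbouring lists called numbered 5 to 12, 15 to 21 and 9 to 18 with a library left out, against 7, 20 and 14 with all, and 4, 12 and 7 at 0.01. In Kir2.1 against RFP they numbered 12 with DESeq2 and 12 in a fit of the 2 groups alone.

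Between RFP and Kir2.1, deviations of same-numbered replicates correlated at r = 0.181, -0.0938 and 0.157 for replicates 1, 2 and 3. Those of different numbers ran from -0.218 to 0.085. Values this few do not settle whether the numbers mark pairs, and the main fit did not take them as pairs. With the replicate block, 4, 4 and 6 members were called in the 3 comparisons, PSAT1 in Kv1.5 against RFP being lost at a log2 difference of 0.58, and 3707, 5565 and 2729 genes changed, with 10, 20 and 13 of the neighbouring lists. Depth limits ALDH1L2, SLC19A1, GNMT, DMGDH and ALDH1L1, all under 2 CPM.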
